A study of Saccharomyces cerevisiae with 39 samples.

Results

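The genes described here are the nuclear genes of the mitochondrial respiratory chain and the ATP synthase of Saccharomyces cerevisiae. Members were the features whose standard symbol is COX, QCR, ATP or SDH followed by a number, together with CYT1, RIP1, COR1, CYC1, CYC7, NDI1, NDE1, NDE2 and TIM11. This gave 62 of the 6186 features in the count table. RefSeq holds 63 nuclear genes that fit these names, and the remaining gene, QCR9, was not analysed here. By role, 42 members encode subunits, NADH dehydrogenases or cytochrome c, and 20 encode factors that build the complexes and are not part of the finished enzyme, called assembly genes below.

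Poly(A) RNA was sequenced from diploid yeast in sporulation medium (0.3% potassium acetate), to which 50 µM copper sulphate was added 3 h after transfer. The series is about the intrinsically disordered region of Pho92, which reads N6-methyladenosine (m6A) through its YTH domain, and the turnover of mRNA that depends on m6A. In 10 strains the endogenous pho92 was deleted with a hyg marker and an altered HA-tagged PHO92 stood under the copper-induced CUP1 promoter at trp1. The substitutions W177A, W5A and W18A each had a strain of their own, and W5A_W18A had both of the last named. The strains del1_70, del28_52 and del110_155 were named for the residues they lack, 1 to 70, 28 to 52 and 110 to 155, and del28_52_130_155 lacked both of the stretches in its name. W5A_W18A_del28_52 joined the substitutions with the shorter deletion. For W5A_W18A_del28_52_110_155 the title and the genotype differ, since the genotype has the deletions and no substitution, so the labels do not settle whether it carries the substitutions. The strains they were set against were CUP1_WT, with the unchanged tagged copy under the same promoter and the same deletion of the endogenous gene, then pho92_null, with pho92 replaced by HYG, and the wild type (WT). All 13 strains are MATa/alpha diploids. In all of them ho carries LYS2, and leu2, his3 and trp1 each carry hisG, besides lys2 and ura3. The time of collection after copper is not given, and the protocols mention an early-meiosis arrest and degron strains while the genotypes list no such allele.

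Budding yeast has no complex I. Electrons from NADH enter through the internal dehydrogenase Ndi1 or the external enzymes Nde1 and Nde2, electrons from succinate enter through complex II, and complexes III and IV pass them by way of cytochrome c to oxygen, building the proton gradient that the ATP synthase uses. Several core subunits are encoded in mitochondrial DNA and are not among the members, and the rest are nuclear genes that respond to carbon source, haem and oxygen, many of them through the Hap2/3/4/5 activator. Sporulation on acetate depends on respiration, because acetate cannot be fermented.

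Each strain had 3 libraries, with totals of 15928411 to 37186964 counts and a median of 20694394, and the fewest counts of any member in any library was 28. Levels are in CPM (counts scaled to a library of fixed size), and differences are on the log2 CPM scale with the standard error (SE) of a limma fit of all 39 libraries. A gene was called higher or lower at a Benjamini-Hochberg adjusted p under 0.05 over the 5840 genes tested, and all 62 members were among those tested. PHO92 itself had 8197, 9805 and 11234 CPM in CUP1_WT, 0.941, 2.37 and 0.0919 CPM in pho92_null and 1054, 957 and 802 CPM in WT. It lay between 5384 and 16626 CPM in the libraries of the 10 altered strains. It averaged 14852 ± 1959 CPM in W5A_W18A, 14790 ± 659 in W5A and 5543 ± 150 in W5A_W18A_del28_52_110_155, against 9746 ± 1519 in CUP1_WT (SD, n = 3 each). Altered strains thus differed in PHO92 level as well as in the protein encoded. The part of that level in the members' differences was not tested. The labels do not say that libraries of a strain came from separate cultures, so p-values measure the spread between these libraries, which may be technical. In bulk RNA, fewer cells in a given state and less RNA per cell cannot be told apart. The stage of meiosis varied among libraries: the summed level of 10 middle-meiosis genes was 5376 to 26629 CPM in CUP1_WT and 617 to 4314 CPM in pho92_null. This sum went with the replicate number, at 26629, 15163 and 5376 CPM in replicates 1, 2 and 3 of CUP1_WT. In WT it was 21943, 17783 and 5623 CPM in the same order, and replicate 3 was lowest in every strain except W5A_W18A.

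Of the 62 members, 42 differed among the 13 strains by limma's F-test at an adjusted p under 0.05, against 64.5% of all genes tested. Without the replicate 2 libraries 23 members did. That fit holds fewer libraries and its share of all genes is not given, so the fall cannot be told from a fall over all genes. The range of the strain means had a median of 0.63 (log2) over the members and 0.74 over all genes. The members together made up 1.20% to 1.95% of the counts in each library. Their summed level averaged 19158 ± 1183 CPM in W177A, 19144 ± 1191 CPM in del28_52_130_155 and 13900.3 ± 217 CPM in W5A_W18A, against 14494 ± 779.6 CPM in CUP1_WT (SD, n = 3 each). The W177A and del28_52_130_155 libraries were all above those of CUP1_WT, and the W5A_W18A libraries overlapped them. The order of those means depended on the scaling: as a share of all counts the members averaged 1.54% ± 0.0434 in W5A_W18A, against 1.42% ± 0.246 in CUP1_WT (SD, n = 3 each), which was the lowest mean share of the 13 strains. The comparisons below give the subunit genes and the assembly genes separately, a division made after the values had been seen.

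**Figure D1:**
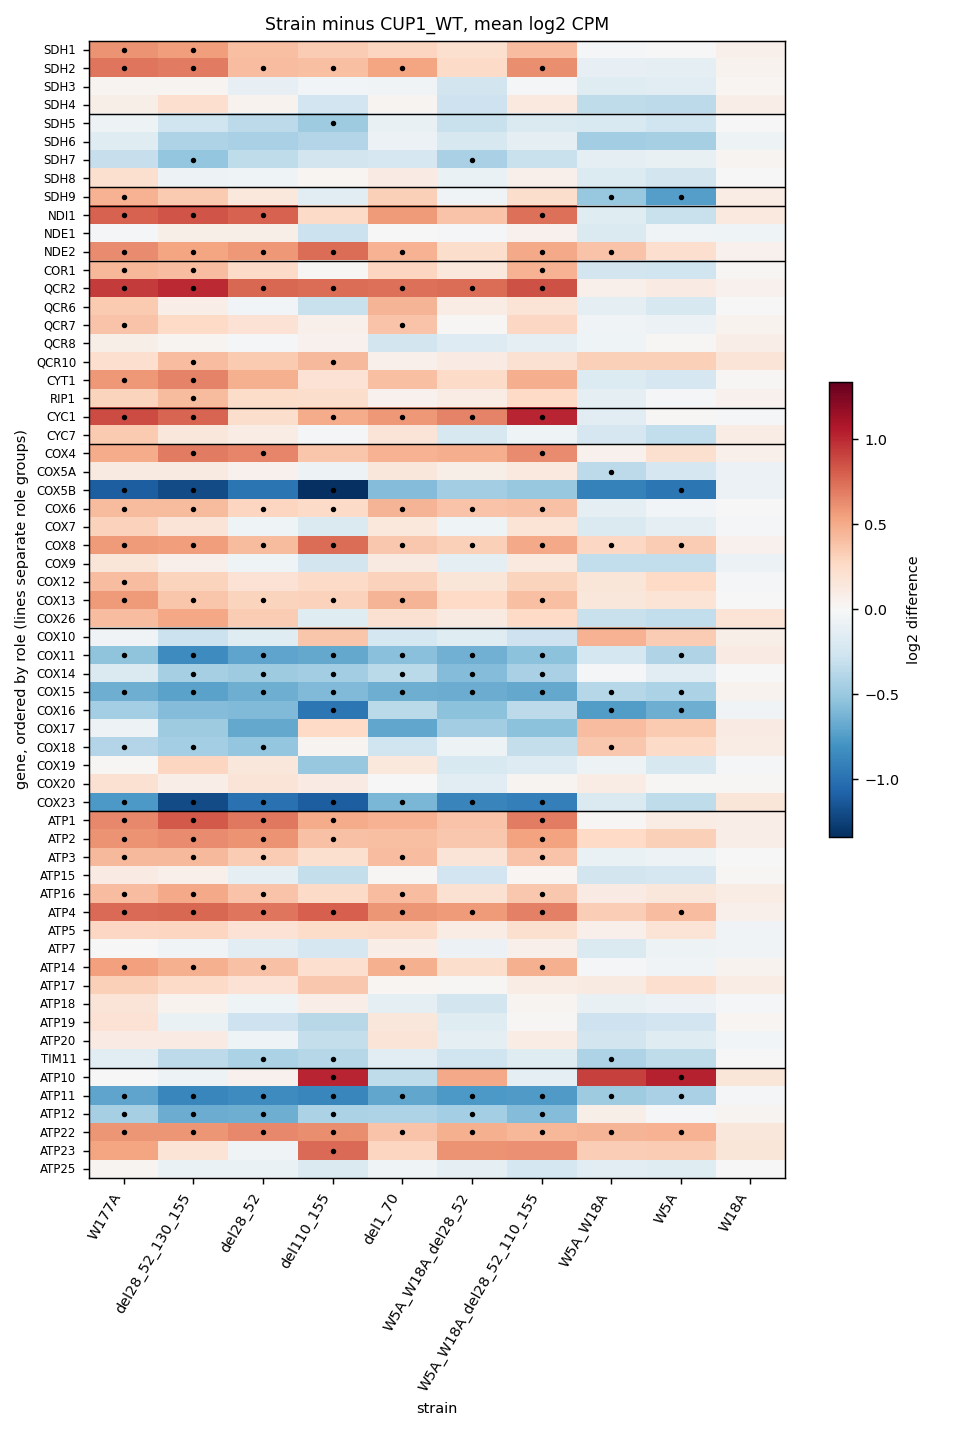
Mean log2 CPM of each of the 62 genes in 10 strains with altered Pho92 (columns) minus CUP1_WT, with black dots where limma called the difference. QCR2 reaches 1.00 in del28_52_130_155 and COX23 falls to -1.20 there, while the W18A column stays between -0.08 and 0.19.

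The comparison of CUP1_WT with pho92_null asks what restoring Pho92 at a high level does. Among the members called, subunit genes were mostly lower and assembly genes mostly higher in CUP1_WT. Of the 42 subunit, dehydrogenase and carrier genes, 2 were called higher and 15 lower. Of the 20 assembly genes, 9 were called higher and 1 lower. The 27 members called compare with 39.9% of all genes tested, so the total is near the background, and the directions by role are the description: the median difference was -0.20 for subunit genes, 0.30 for assembly genes and -0.03 for all genes. Of all genes, 19.2% were called higher and 20.8% lower. In the same comparison all 10 middle-meiosis genes were called higher and 4 of 10 genes listed as markers of fermenting cells lower. Their part in the result was not tested. The latter list, called genes of fermenting cells below, holds genes of glycolysis, ethanol formation and glucose uptake. Its name is a label, and whether any cells fermented was not tested. A fit of the CUP1_WT and pho92_null libraries alone called 13 members, 7 higher and 6 lower.

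Among the members lower in CUP1_WT, QCR2 (YPR191W), which encodes a core subunit of complex III, had 245, 310.1 and 369.5 CPM in CUP1_WT, against 520.0, 532 and 599 CPM in pho92_null. The 3 CUP1_WT libraries were all below the 3 pho92_null libraries, and the difference was -0.85 ± 0.16 SE, limma adjusted p = 0.000177. ATP4 (YPL078C), the stalk subunit b of the ATP synthase, had 184, 172 and 249 CPM in CUP1_WT, against 376, 322 and 342 CPM in pho92_null (log2 difference -0.80 ± 0.13 SE, limma adjusted p = 3.16e-05). COX8 (YLR395C), a small subunit of complex IV, had 22.7, 22.5 and 28.3 CPM in CUP1_WT, against 45.1, 39.7 and 42.3 CPM in pho92_null (log2 difference -0.79 ± 0.09 SE, limma adjusted p = 2.55e-07). For both genes every CUP1_WT library lay below every pho92_null library. The external NADH dehydrogenase gene NDE2 (YDL085W) also fell without overlap, by 0.80 on the log2 scale (limma adjusted p = 4.18e-05).

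Among the assembly genes higher in CUP1_WT, COX23 (YHR116W), a twin CX9C protein of the intermembrane space, had 43.4, 48.7 and 49.0 CPM in CUP1_WT, against 22.9, 13.5 and 18.9 CPM in pho92_null, a difference of 1.38 ± 0.17 SE, limma adjusted p = 5.02e-07. ATP11 (YNL315C), the chaperone that holds the F1 beta subunit, had 127, 107 and 105 CPM in CUP1_WT, against 59.7, 43.1 and 49.6 CPM in pho92_null (log2 difference 1.16 ± 0.13 SE, limma adjusted p = 1.41e-07). COX15 (YER141W), which makes haem A for complex IV, had 409, 342 and 339 CPM in CUP1_WT, against 206, 175 and 204 CPM in pho92_null (log2 difference 0.89 ± 0.10 SE, limma adjusted p = 1.48e-07). In all 3 genes the lowest CUP1_WT library was above the highest pho92_null library. The assembly gene called lower was ATP22 (YDR350C), which is needed to translate the mitochondrial ATP6 mRNA. It was named here for its direction after its values were seen, with 58.1, 58.7 and 68.1 CPM in CUP1_WT, against 85.2, 89.4 and 95.6 CPM in pho92_null.

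Against WT, which keeps PHO92 at its native level, CUP1_WT had 7 members called, 4 higher and 3 lower, against 1.66% of all genes tested (1.13% higher and 0.531% lower). Members whose 3 libraries did not overlap between CUP1_WT and WT numbered 29 of 62, against 17.2% of all genes. All 4 called higher were assembly genes and all 3 called lower were subunit or dehydrogenase genes. COX18 (YGR062C), which exports the end of Cox2, had 15.9, 14.8 and 14.7 CPM in CUP1_WT, against 9.16, 9.17 and 9.08 CPM in WT (log2 difference 0.72 ± 0.14 SE, limma adjusted p = 0.00332), and the WT libraries were nearly equal to each other and below all of CUP1_WT. COX23 differed by 0.81 ± 0.17 SE, limma adjusted p = 0.00626, and its WT libraries had 26.5, 26.1 and 27.8 CPM. COX8 differed by -0.48 ± 0.09 SE, limma adjusted p = 0.00332, with 32.7, 33.2 and 36.3 CPM in WT. These 3 calls held when any library was left out. The calls of ATP11 and COX11 (higher) and of NDE2 and SDH2 (lower) did not: without CUP1_WT replicate 1 or CUP1_WT replicate 2, 3 members were called, and without WT replicate 2 or WT replicate 3, 4 were. In a fit of the CUP1_WT and WT libraries alone, 0 members and 2 of all genes were called. With the replicate number added to the fit of all libraries (the replicate block), 10 members were called, against 3.39% of all genes. The numbers were taken to pair these libraries.

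Loss of PHO92 against WT gave 14 members called, 7 higher and 7 lower, against 33.2% of all genes tested (18.4% higher and 14.8% lower). The 20 assembly genes had 3 higher and 5 lower, and the 42 others 4 higher and 2 lower. In the same comparison 9 of 10 middle-meiosis genes were called lower and 5 of 10 genes of fermenting cells higher, and their part was not tested. CYC1 (YJR048W), the main cytochrome c gene, had 67.1, 59.4 and 65.5 CPM in pho92_null and 44.7, 40.6 and 45.5 CPM in WT (log2 difference 0.55 ± 0.13 SE, limma adjusted p = 0.00355). ATP23 (YNR020C), which encodes the protease that matures Atp6, had 13.6, 14.0 and 11.8 CPM in pho92_null and 8.09, 4.51 and 6.01 CPM in WT (log2 difference 1.10 ± 0.23 SE, limma adjusted p = 0.00121). COX15 went the other way, with 206, 175 and 204 CPM in pho92_null and 298, 268 and 276 CPM in WT (log2 difference -0.52 ± 0.10 SE, limma adjusted p = 0.000592). In these 3 genes the libraries of pho92_null and WT did not overlap. The count of members called was 8 without pho92_null replicate 2, WT replicate 1 or WT replicate 2, and 9 without pho92_null replicate 3, and a fit of these strains alone called 3. The comparison shares its pho92_null libraries with the one above, so their values are not independent: COX15 averaged 364 ± 39.3 CPM in CUP1_WT, 195 ± 17.2 CPM in pho92_null and 281 ± 15.9 CPM in WT (SD, n = 3 each).

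**Figure D2:**
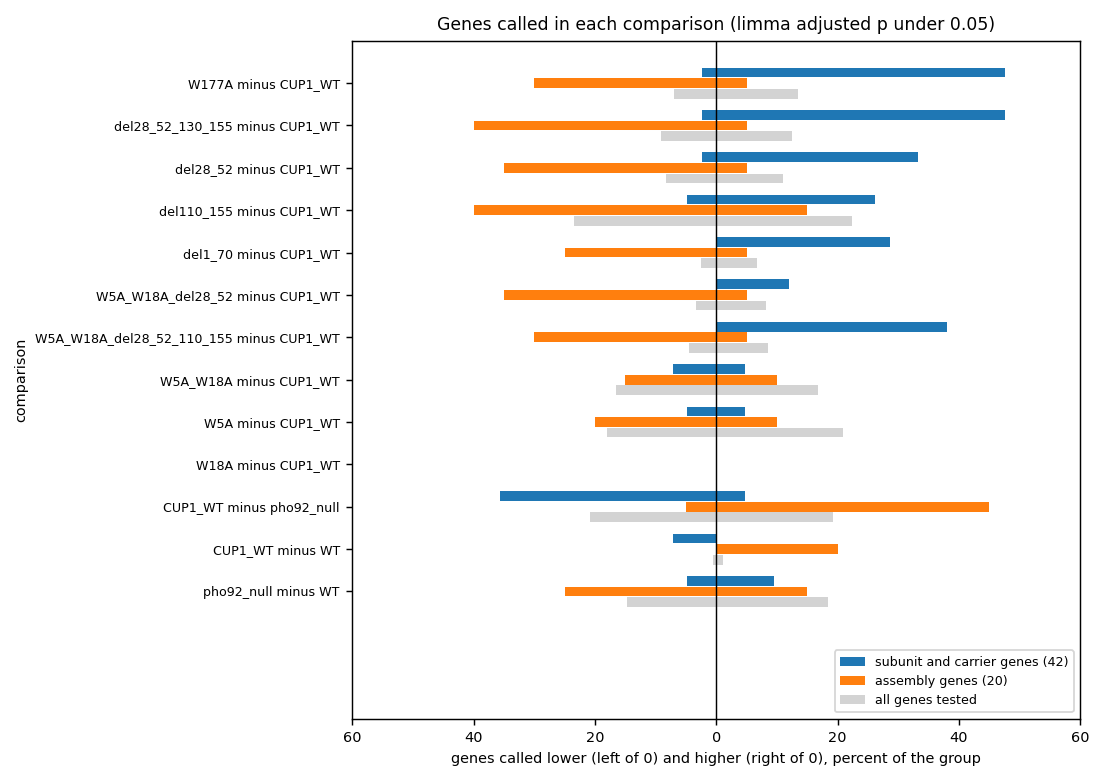
Percent of the 42 subunit and carrier genes, the 20 assembly genes and all 5840 genes that limma called higher (right of 0) or lower (left of 0) in 13 comparisons. In W177A minus CUP1_WT, 20 of 42 subunit genes are called higher and 6 of 20 assembly genes lower, and CUP1_WT minus pho92_null shows 15 subunit genes lower and 9 assembly genes higher.

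W177A alters a tryptophan of the YTH domain, the part of the protein that binds m6A. Against CUP1_WT, the subunit genes called were mostly higher and the assembly genes called mostly lower. Among the 42 subunit genes the calls were 20 higher and 1 lower, with a median difference of 0.39, and among 20 assembly genes they were 1 higher and 6 lower, with a median of -0.12. Over all genes tested, 20.5% were called (13.5% higher and 7.04% lower) and the median was -0.00. Without CUP1_WT replicate 1, 18 members were called in place of 28 and 12 subunit genes were called higher in place of 20, and a fit of the W177A and CUP1_WT libraries alone called 16.

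By role, 2 of the 3 NADH dehydrogenase genes were called higher. The internal enzyme gene NDI1 (YML120C) had 511, 623 and 585 CPM in W177A, against 350.2, 338 and 306 CPM in CUP1_WT. Every W177A library exceeded every CUP1_WT library, a difference of 0.79 ± 0.19 SE, limma adjusted p = 0.00301. In complex II, SDH1, SDH2 and SDH9 of 5 genes were called higher and none lower: the iron-sulphur subunit gene SDH2 (YLL041C) had 769, 812 and 743 CPM in W177A, against 444, 495 and 476 CPM in CUP1_WT. The W177A libraries of SDH2 were again all higher. In complex III, 4 of 8 genes were called higher, led by QCR2 with 522, 577 and 646 CPM in W177A, against 245, 310.1 and 369.5 CPM in CUP1_WT (log2 difference 0.93 ± 0.16 SE, limma adjusted p = 9.91e-05). The other core subunit gene, COR1, had 1087, 1169 and 1130.0 CPM in W177A, against 829, 853 and 803 CPM in CUP1_WT, and CYT1, which encodes cytochrome c1, had 638, 721 and 791 CPM in W177A, against 409, 485 and 543 CPM in CUP1_WT. Neither gene's libraries overlapped between W177A and CUP1_WT.

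CYC1 had 84.6, 93.2 and 73.0 CPM in W177A, against 48.1, 39.3 and 49.0 CPM in CUP1_WT, and its lowest W177A library stood well above its highest CUP1_WT library (log2 difference 0.88 ± 0.13 SE, limma adjusted p = 1.52e-05). In complex IV, 4 of 10 subunit genes (COX6, COX8, COX12 and COX13) were called higher and COX5B was called lower. COX13, the subunit VIa gene, had 543, 473 and 437 CPM in W177A, against 299, 331 and 346 CPM in CUP1_WT, without overlap. In the ATP synthase, 6 of 14 subunit genes were called higher and none lower. ATP4 had 351, 358 and 301 CPM in W177A, against 184, 172 and 249 CPM in CUP1_WT (log2 difference 0.75 ± 0.13 SE, limma adjusted p = 9.51e-05). The F1 genes ATP1 (alpha), ATP2 (beta), ATP3 (gamma) and ATP16 (delta) and the stalk gene ATP14 were the others. ATP2 had 2296, 2490.4 and 2075 CPM in W177A, against 1376, 1429 and 1736 CPM in CUP1_WT, so its libraries did not overlap either. Genes of neighbouring parts of the same enzyme were not called, with differences of 0.01 for the stalk gene ATP7, 0.11 for the F1 epsilon gene ATP15, and 0.11 and -0.14 for ATP20 and TIM11, whose products join the enzyme into dimers.

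Among assembly genes, COX23 had 27.3, 25.9 and 29.4 CPM in W177A, against 43.4, 48.7 and 49.0 CPM in CUP1_WT (log2 difference -0.77 ± 0.17 SE, limma adjusted p = 0.0013). ATP11 had 72.0, 67.6 and 68.1 CPM in W177A, against 127, 107 and 105 CPM in CUP1_WT (log2 difference -0.70 ± 0.13 SE, limma adjusted p = 0.000247). COX15 had 222, 226 and 243 CPM in W177A, against 409, 342 and 339 CPM in CUP1_WT (log2 difference -0.65 ± 0.10 SE, limma adjusted p = 2.45e-05). Each of these 3 genes was lower in all W177A libraries than in any CUP1_WT library. The other assembly genes called lower were COX11, which delivers copper to Cox1, COX18, and ATP12, the chaperone of the F1 alpha subunit. ATP12 had 29.3, 29.9 and 33.7 CPM in W177A, against 38.5, 43.4 and 44.6 CPM in CUP1_WT. ATP22 was the assembly gene called higher, with 91.0, 94.9 and 92.7 CPM in W177A, against 58.1, 58.7 and 68.1 CPM in CUP1_WT, and the 4 complex II assembly genes SDH5 to SDH8 were not called, with differences between -0.31 and 0.21.

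**Figure D3:**
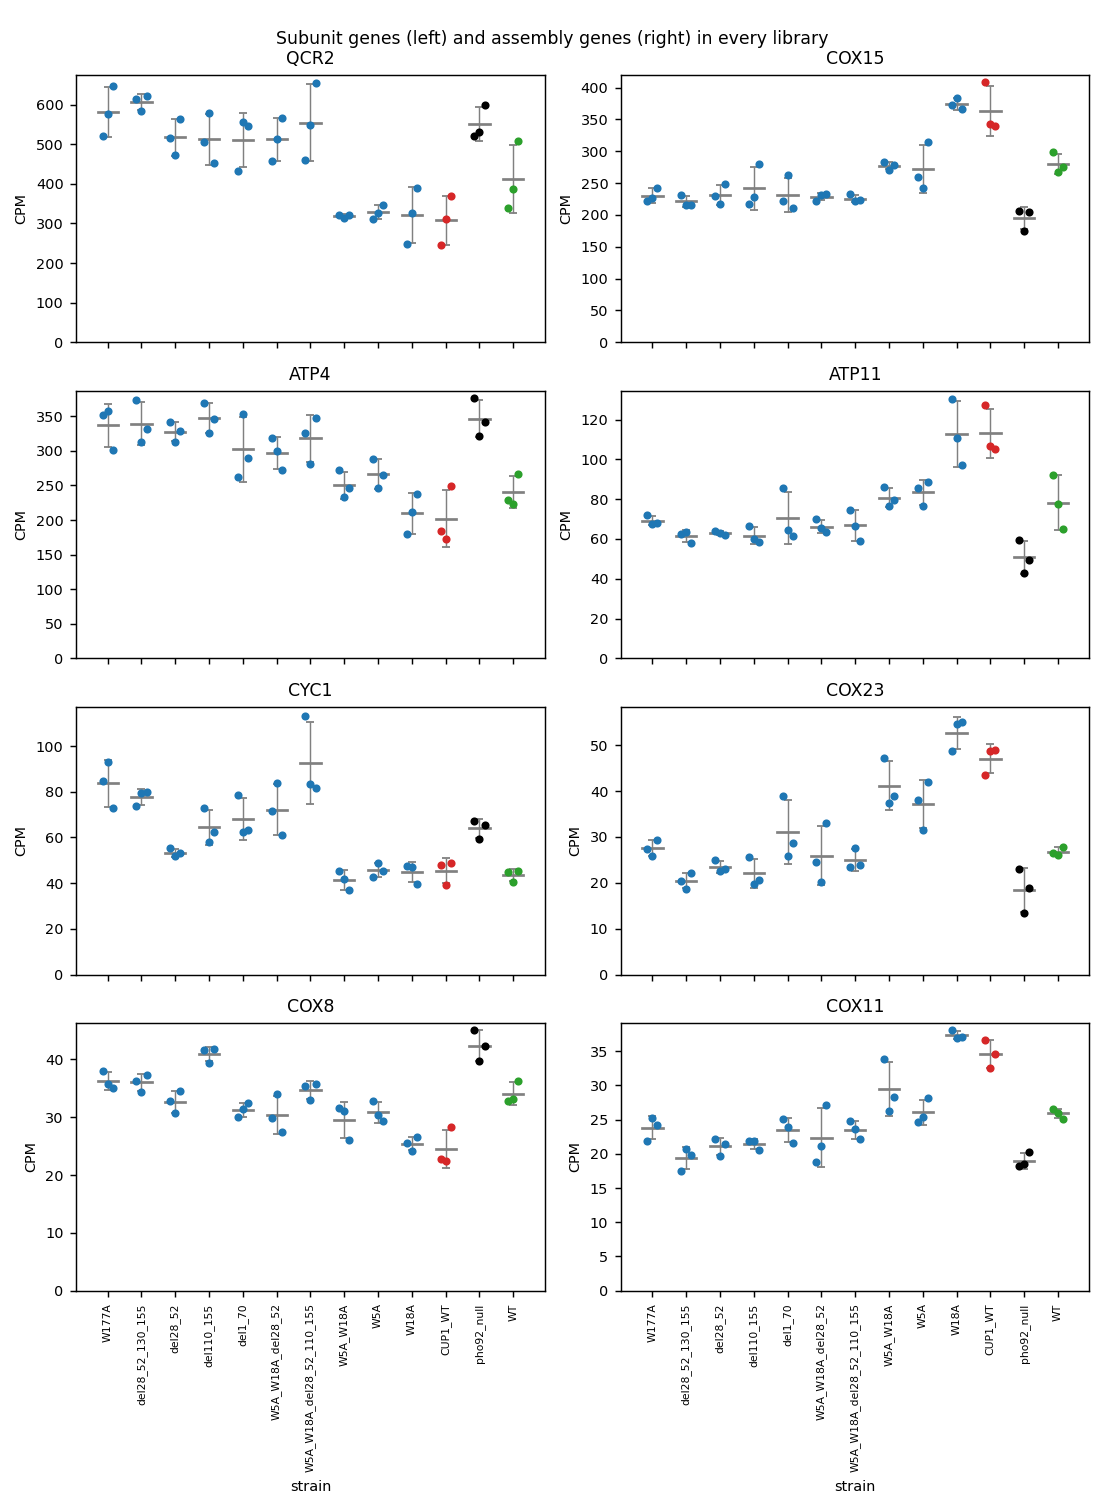
CPM of 4 subunit or carrier genes (left) and 4 assembly genes (right) in every library, with gray lines for the mean and SD of the 3 libraries of a strain. QCR2 lies at 522 to 646 CPM in W177A and at 245 to 369.5 CPM in CUP1_WT, and COX15 at 222 to 243 CPM in W177A and at 339 to 409 CPM in CUP1_WT.

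Set directly against pho92_null, W177A had 3 members called, all higher assembly genes (COX23, ATP11 and ATP25), against 4.83% of all genes tested (1.42% higher and 3.41% lower), and 0 of 42 subunit genes. COX23 differed by 0.61 ± 0.17 SE, limma adjusted p = 0.0331. All 3 calls rested on small margins: 0 members were called without W177A replicate 1, W177A replicate 2 or pho92_null replicate 2, 1 without W177A replicate 3 or pho92_null replicate 3, and 11 without pho92_null replicate 1. A fit of these strains alone called 0. The members' median difference was 0.15 with a range of -0.91 to 0.64, and the median over all genes was 0.04.

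The strains that lack residues 28 to 52 with or without 130 to 155 had more subunit genes called higher than lower, and more assembly genes called lower than higher, against CUP1_WT. In del28_52_130_155, the calls were 20 higher and 1 lower of 42 subunit genes, and 1 higher and 8 lower of 20 assembly genes, against 21.6% of all genes called (12.4% higher and 9.18% lower). In del28_52, 14 subunit genes were called higher and 1 lower, and 1 assembly gene higher and 7 lower, against 19.3% of all genes (11% higher and 8.27% lower). The 14 became 8 without del28_52 replicate 1, CUP1_WT replicate 1 or CUP1_WT replicate 2, and 9 without del28_52 replicate 3. The numbers pair the del28_52 and CUP1_WT libraries, and with the replicate block 32 members in place of 23 were called, against 33.4% of all genes. These strains, like all those with altered Pho92, are set against the same 3 CUP1_WT libraries, so a low or high CUP1_WT library moves every such comparison. CUP1_WT values of a gene that were given above are not repeated.

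In del28_52_130_155, QCR2 had 615, 584 and 622 CPM (log2 difference 1.00 ± 0.16 SE, limma adjusted p = 4.27e-05, against CUP1_WT). The F1 alpha gene ATP1 (YBL099W) had 1699, 1541 and 1477 CPM in del28_52_130_155, against 831, 818 and 1042 CPM in CUP1_WT (log2 difference 0.82 ± 0.15 SE, limma adjusted p = 0.000311). NDI1 had 671, 633 and 496 CPM there (log2 difference 0.85 ± 0.19 SE, limma adjusted p = 0.00151). All of these libraries were above those of CUP1_WT. COX23 had 20.5, 18.7 and 22.2 CPM (log2 difference -1.20 ± 0.17 SE, limma adjusted p = 6.76e-06), and COX11 had 17.5, 20.7 and 19.8 CPM in del28_52_130_155, against 36.6, 32.6 and 34.5 CPM in CUP1_WT (log2 difference -0.84 ± 0.11 SE, limma adjusted p = 1.97e-06). COX11 was thus lower in every del28_52_130_155 library.

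In del28_52, ATP4 had 341, 313 and 329 CPM (log2 difference 0.72 ± 0.13 SE, limma adjusted p = 0.000259) and ATP1 had 1511, 1375 and 1491 CPM (log2 difference 0.71 ± 0.15 SE, limma adjusted p = 0.00185). COX23 had 25.0, 22.6 and 22.9 CPM and fell by 1.00 ± 0.17 SE on the log2 scale (limma adjusted p = 0.000108). ATP12 had 28.3, 24.3 and 27.6 CPM in del28_52, against 38.5, 43.4 and 44.6 CPM in CUP1_WT (log2 difference -0.66 ± 0.14 SE, limma adjusted p = 0.00124). The libraries of del28_52 did not overlap those of CUP1_WT for any of these genes. CYC1 averaged 53.4 ± 1.76 CPM in del28_52 and 45.5 ± 5.34 CPM in CUP1_WT (SD, n = 3 each), and the difference did not pass the test although the libraries did not overlap.

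In del1_70, 12 subunit genes were called higher and 0 lower, and 1 assembly gene was called higher and 5 lower, against 9.26% of all genes tested (6.68% higher and 2.59% lower). QCR2 had 433, 556 and 546 CPM in del1_70 (log2 difference 0.74 ± 0.16 SE, limma adjusted p = 0.00265) and ATP11 had 85.5, 64.4 and 61.5 CPM (log2 difference -0.69 ± 0.13 SE, limma adjusted p = 0.00076). The ATP11 libraries of del1_70 were uneven, with replicate 1 highest, and all lay below CUP1_WT. The count of 18 members was 11 without del1_70 replicate 2, 10 without CUP1_WT replicate 1 and 9 without CUP1_WT replicate 2. Subunit genes called higher numbered 6 without either of those CUP1_WT libraries, and assembly genes called lower numbered 3 without del1_70 replicate 2, del1_70 replicate 3 or CUP1_WT replicate 2. A fit of the del1_70 and CUP1_WT libraries alone called 0 members and 0 of all genes.

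In del110_155, 24 members were called, 11 subunit genes higher and 2 lower with 3 assembly genes higher and 8 lower, against 45.8% of all genes tested (22.3% higher and 23.5% lower), so the share of members was below the background. With the replicate block, used here because the numbers pair these libraries, 35 members were called against 52.5% of all genes, a share above the background, so the order of the shares depends on the fit. All 10 middle-meiosis genes and 5 of 10 early-meiosis genes were called lower in the same comparison. The early-meiosis calls rested on replicate 3, whose early-meiosis sum was 4448 CPM, against 15857 and 17020.5 CPM in replicates 1 and 2: without it 1 early-meiosis gene was called lower and 1 higher, and without CUP1_WT replicate 2 there were 2 lower. Replicate 3 also had the highest sum of the 10 genes of fermenting cells, 12698 CPM, and without it 0 of those were called. COX23 had 25.7, 19.8 and 20.7 CPM in del110_155 (log2 difference -1.10 ± 0.17 SE, limma adjusted p = 1.3e-05) and ATP11 had 66.4, 59.8 and 58.5 CPM (log2 difference -0.87 ± 0.13 SE, limma adjusted p = 1.03e-05). Both were lower in every del110_155 library than in CUP1_WT. ATP4 had 369.5, 326 and 346 CPM (log2 difference 0.80 ± 0.13 SE, limma adjusted p = 2.86e-05), and this call was lost in a fit of the compared strains alone (0.79, adjusted p = 0.0509). NDI1, called higher in W177A and del28_52, had 369.5, 547 and 305 CPM in del110_155. Replicate 2 was high there, and replicate 3 was just below the lowest CUP1_WT library. In replicate 3 of del110_155, 50 of the 62 members were lower than in replicate 1, with a median difference of -0.25, against 0.02 over all genes. The same count was 48 in del28_52_130_155, 46 in pho92_null and 45 in W177A, with medians of -0.14, -0.14 and -0.15. The shift went the other way in CUP1_WT, WT and W18A, where 41, 39 and 38 members were higher in replicate 3. The medians there were 0.18, 0.06 and 0.12. In all other strains more members were lower than higher, and the del110_155 median was the lowest. A lower replicate 3 was thus not peculiar to del110_155, but CUP1_WT did not share it. The F0 assembly gene ATP10 had 4.27, 6.14 and 19.7 CPM in del110_155, against 4.02, 3.06 and 4.92 CPM in CUP1_WT (log2 difference 1.02 ± 0.37 SE, limma adjusted p = 0.0258), and without del110_155 replicate 3 the difference was 0.37, adjusted p = 0.387. Without CUP1_WT replicate 1 or CUP1_WT replicate 2, 15 members were called, with 6 and 7 subunit genes higher. Subunit genes called lower numbered 7 without del110_155 replicate 1, and the fit of the compared strains alone called 5.

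The strains that join substitutions and deletions differed in how many members were called. W5A_W18A_del28_52_110_155 had 16 subunit genes called higher and 0 lower, and 1 assembly gene higher and 6 lower, against 13% of all genes tested (8.49% higher and 4.47% lower). Without CUP1_WT replicate 1 the 16 became 9. With the replicate block, where the numbers pair these libraries, 27 members in place of 23 were called in W5A_W18A_del28_52_110_155, against 18.9% of all genes. CYC1 had 113, 83.2 and 81.5 CPM there (log2 difference 1.01 ± 0.13 SE, limma adjusted p = 3.18e-06), the highest mean of this gene among the 13 strains. W5A_W18A_del28_52 had 5 subunit genes called higher and 0 lower, and 1 assembly gene higher and 7 lower, against 11.5% of all genes (8.13% higher and 3.41% lower). Without CUP1_WT replicate 1 the 5 became 3, and without CUP1_WT replicate 2 they became 2. Its QCR2 libraries had 458, 513 and 566 CPM (log2 difference 0.75 ± 0.16 SE, limma adjusted p = 0.00223) and its COX11 libraries 18.8, 21.2 and 27.2 CPM (log2 difference -0.64 ± 0.11 SE, limma adjusted p = 0.000178). These QCR2 libraries were all above, and these COX11 libraries all below, those of CUP1_WT. Fits of only the strains compared called 1 member in W5A_W18A_del28_52_110_155 and 0 in W5A_W18A_del28_52. The difference between these joined strains was not tested.

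The substitution W5A gave 10 members called against CUP1_WT, 4 higher and 6 lower, below the share of all genes (39%, with 20.9% higher and 18.1% lower). All 10 middle-meiosis genes were called lower and 5 of 10 genes of fermenting cells higher in the same comparison, and their part was not tested. The subunit genes had 2 higher and 2 lower, with a median of -0.07 against 0.03 over all genes. SDH9 (YJL045W), a paralogue of the complex II gene SDH1, had 195, 178 and 277 CPM in W5A, against 346, 379 and 341 CPM in CUP1_WT (log2 difference -0.74 ± 0.16 SE, limma adjusted p = 0.000841), and ATP22 had 76.9, 89.4 and 88.2 CPM in W5A, against 58.1, 58.7 and 68.1 CPM in CUP1_WT (log2 difference 0.46 ± 0.10 SE, limma adjusted p = 0.000953). Neither gene's libraries overlapped. QCR2 had 312, 327 and 347 CPM and CYC1 42.9, 48.8 and 45.4 CPM in W5A, overlapping those of CUP1_WT in both genes. With the replicate block, where the numbers pair these libraries, 15 members were called in W5A, against 47.4% of all genes. In the fit without the block, only 4 members were called without CUP1_WT replicate 1, and 6 without CUP1_WT replicate 2. W5A_W18A also had 10 members called, 4 higher and 6 lower, against 33.2% of all genes (16.7% higher and 16.5% lower). Its SDH9 had 267, 243 and 238 CPM (log2 difference -0.51 ± 0.16 SE, limma adjusted p = 0.0133) and its ATP22 78.1, 87.5 and 86.8 CPM (log2 difference 0.45 ± 0.10 SE, limma adjusted p = 0.00201). Leaving out CUP1_WT replicate 1 left 3 members called in W5A_W18A and leaving out CUP1_WT replicate 2 left 5. The SDH9 difference was then -0.48, adjusted p = 0.0525 without CUP1_WT replicate 2.

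W18A had 0 members called against CUP1_WT, and limma called 0 genes in all (0% of those tested), with a lowest adjusted p of 0.0714 over all genes. At an unadjusted p under 0.05 there were 13 genes, none of them a member. That is far below the share of 0.05 of the genes tested that would pass if no gene differed. The test was thus conservative here, and the low count does not show that the strains are alike. The numbers pair these libraries (correlations of 0.83, 0.125 and 0.741), and the fit without the block leaves such shared variation in the error. With the replicate block limma called 2 genes at an adjusted p under 0.05, with 0 members. Member differences lay between -0.08 and 0.19. QCR2 had 248, 326 and 389.5 CPM in W18A and COX23 had 48.7, 54.5 and 54.9 CPM, and both sets of libraries overlapped those of CUP1_WT. With SEs of 0.09 to 0.39 for these differences, a small change could not have been detected.

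W177A was also set directly against W5A, a comparison added after the values had been seen. It called 28 members, against 34.7% of all genes tested. It called 23 of 42 subunit genes higher and 0 lower, and 1 assembly gene higher and 4 lower, against 16.9% of all genes called higher and 17.8% lower. In the same comparison 3 of 10 middle-meiosis genes (SSP1, NDT80 and CDC5) and 2 of 10 early-meiosis genes (HOP1 and REC8) were called higher and 3 of 10 genes of fermenting cells (PDC1, CDC19 and ADH1) lower, and their part was not tested. The middle-meiosis sum was 1157 to 7450.3 CPM in W177A and 549 to 1561 CPM in W5A. The median was 0.40 for subunit genes and 0.04 for all genes. SDH9 had 506, 514 and 455 CPM in W177A and 195, 178 and 277 CPM in W5A (log2 difference 1.21 ± 0.16 SE, limma adjusted p = 2.04e-06). NDI1 had 511, 623 and 585 CPM in W177A and 235, 248 and 338 CPM in W5A (log2 difference 1.08 ± 0.19 SE, limma adjusted p = 6.16e-05). SDH2 had 769, 812 and 743 CPM in W177A and 391, 388 and 539 CPM in W5A (log2 difference 0.83 ± 0.13 SE, limma adjusted p = 1.68e-05). In all 3 genes the lowest W177A library was above the highest W5A library. The count of members called was 19 to 27 with any of the 6 libraries left out, and the assembly genes called lower numbered 1 without W177A replicate 1 or W177A replicate 2 and 2 without W5A replicate 3. COX15 and COX11, called lower against CUP1_WT in W177A and in W5A, did not pass the test here, with differences of -0.23 ± 0.10 and -0.13 ± 0.11 (SE).

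The paired isoforms were followed in every strain. Reads could be shared between paralogues, and how the counting treated such reads is not given in the sources used here, so their levels are less certain than those of the other members. COX5A and COX5B encode the aerobic and the hypoxic form of complex IV subunit V. COX5A strain means ran from 179.6 ± 13.6 CPM in W5A_W18A and 196 ± 13.8 CPM in W5A, through 216 ± 18.1 in W18A, 218 ± 9.78 in del110_155, 238 ± 20.5 in del28_52 and 242 ± 21.2 in W5A_W18A_del28_52, to 248 ± 24.2 in W177A, 248 ± 16.6 in del28_52_130_155, 251 ± 19.7 in W5A_W18A_del28_52_110_155 and 254 ± 21.2 in del1_70, with 229 ± 12.0 in CUP1_WT, 229.6 ± 12.7 in pho92_null and 253 ± 9.92 in WT (SD, n = 3 each). W5A_W18A and then W5A were at the low end, each apart from the next strain by more than its own SD, and the 11 other strains followed each other in steps smaller than the larger of the neighbouring SDs. COX5A was called lower in W5A_W18A than in CUP1_WT and higher in W177A than in W5A, and with the replicate block it was also called lower in W5A than in CUP1_WT (log2 difference -0.22, limma adjusted p = 0.0344).

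COX5B was more variable within and between strains. It averaged 14.6 ± 5.70 CPM in del110_155, 15.7 ± 3.96 in del28_52_130_155, 17.4 ± 6.63 in W177A, 18.0 ± 2.52 in del28_52, 18.3 ± 3.66 in W5A and 18.9 ± 1.63 in W5A_W18A. It averaged 25.6 ± 13.5 CPM in del1_70, 26.2 ± 6.93 in W5A_W18A_del28_52, 27.4 ± 14.1 in W5A_W18A_del28_52_110_155 and 35.3 ± 13.3 in W18A, against 36.9 ± 13.7 in CUP1_WT, 16.5 ± 1.68 in pho92_null and 33.4 ± 10.8 in WT (SD, n = 3 each). The CUP1_WT libraries had 51.7, 34.3 and 24.7 CPM, with replicate 3 far below replicate 1, and the WT libraries had 40.3, 39.0 and 20.9 CPM. COX5B was called lower against CUP1_WT in W177A (-1.10 ± 0.39), W5A (-0.96 ± 0.39), del110_155 (-1.34 ± 0.39) and del28_52_130_155 (-1.19 ± 0.39), and called higher in CUP1_WT than in pho92_null (1.10 ± 0.39; log2 differences with SE). In del28_52 the difference was -0.98 ± 0.39 and missed the threshold (limma adjusted p = 0.0714), but COX5B was called lower there with the replicate block, where the numbers pair the libraries (log2 difference -0.98, limma adjusted p = 0.0171). Each of the calls without the block was lost when CUP1_WT replicate 1 was left out, with differences of -0.86, adjusted p = 0.202 for W177A, -0.73, adjusted p = 0.21 for W5A, -1.06, adjusted p = 0.0531 for del110_155, -0.92, adjusted p = 0.163 for del28_52_130_155 and 0.84, adjusted p = 0.138 for CUP1_WT against pho92_null.

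CYC1 and CYC7 encode the main and the minor (hypoxic) cytochrome c. CYC1 averaged 92.7 ± 17.9 CPM in W5A_W18A_del28_52_110_155, 83.6 ± 10.1 in W177A, 77.7 ± 3.37 in del28_52_130_155, 72.2 ± 11.3 in W5A_W18A_del28_52, 68.0 ± 9.25 in del1_70 and 64.4 ± 7.61 in del110_155. It averaged 45.7 ± 3.00 in W5A, 44.7 ± 4.36 in W18A and 41.3 ± 4.28 in W5A_W18A, against 45.5 ± 5.34 in CUP1_WT, 64.0 ± 4.10 in pho92_null and 43.6 ± 2.61 in WT (SD, n = 3 each). CUP1_WT, WT, W5A, W18A and W5A_W18A formed the low end of the order and could not be told apart by their spread. CYC7 averaged 51.7 ± 12.7 CPM in W177A, 46.4 ± 17.5 in del28_52_130_155, 46.0 ± 12.8 in del1_70, 43.2 ± 9.22 in W18A and 43.1 ± 7.83 in del28_52. The remaining means were 39.6 ± 5.77 in del110_155, 38.5 ± 5.14 in W5A_W18A_del28_52_110_155, 34.8 ± 7.55 in W5A_W18A_del28_52, 33.9 ± 2.75 in W5A_W18A and 31.7 ± 4.22 in W5A, with 39.9 ± 4.46 in CUP1_WT, 33.1 ± 8.47 in pho92_null and 33.4 ± 2.33 in WT. CYC7 was not called in any comparison with CUP1_WT, pho92_null or WT, and its SD reached 17.5 CPM in del28_52_130_155, but it was called higher in W177A than in W5A.

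NDE1 and NDE2 encode the external NADH dehydrogenases. In the fit without the replicate block NDE1 was not called in any comparison made, and with the block it was called lower in del110_155 than in CUP1_WT (log2 difference -0.28, limma adjusted p = 0.0247). It had means of 1254 ± 152 CPM in W177A, 1339 ± 165 in del28_52_130_155, 1328 ± 90.9 in del28_52, 1051 ± 239 in del110_155 and 1274 ± 189 in del1_70. Its other means were 1239 ± 126 in W5A_W18A_del28_52, 1312 ± 142 in W5A_W18A_del28_52_110_155, 1102 ± 81.6 in W5A_W18A, 1223 ± 142 in W5A and 1209.5 ± 34.2 in W18A, with 1258 ± 49.1 in CUP1_WT, 1134 ± 90.9 in pho92_null and 1318 ± 63.2 in WT (SD, n = 3 each). NDE2 averaged 872 ± 39.0 CPM in del110_155, 806 ± 70.5 in W177A, 779.9 ± 39.5 in del28_52, 748 ± 18.1 in del28_52_130_155, 741 ± 89.7 in W5A_W18A_del28_52_110_155 and 715 ± 9.37 in del1_70. It averaged 681 ± 68.8 in W5A_W18A, 619 ± 116 in W5A_W18A_del28_52, 608 ± 67.3 in W5A and 548 ± 104 in W18A, against 522 ± 57.5 in CUP1_WT, 905 ± 92.7 in pho92_null and 775 ± 53.5 in WT. CUP1_WT was thus the lowest of the 13 means for NDE2 and pho92_null the highest, and the means of W18A and CUP1_WT differed by less than their SDs.

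For complex II, SDH1 averaged 1915 ± 151 CPM in W177A, 1847 ± 81.6 in del28_52_130_155, 1682 ± 239 in W5A_W18A_del28_52_110_155, 1664 ± 110.3 in del28_52, 1601 ± 239 in del110_155 and 1552 ± 331 in del1_70. It averaged 1460.2 ± 35.6 in W5A_W18A_del28_52, 1322 ± 196 in W18A, 1266 ± 226 in W5A and 1239.8 ± 7.23 in W5A_W18A, against 1259 ± 105 in CUP1_WT, 1734 ± 281 in pho92_null and 1539 ± 173 in WT (SD, n = 3 each). The means of W5A and W5A_W18A differed from that of CUP1_WT by less than its SD. SDH9 averaged 492 ± 31.8 CPM in W177A, 455 ± 53.4 in del28_52_130_155, 445 ± 43.9 in del1_70, 419 ± 33.7 in W5A_W18A_del28_52_110_155, 394 ± 46.7 in del28_52 and 381 ± 47.6 in W18A. It averaged 349 ± 80.2 in W5A_W18A_del28_52, 322 ± 54.2 in del110_155, 249 ± 15.4 in W5A_W18A and 217 ± 52.6 in W5A, against 355 ± 20.5 in CUP1_WT, 374 ± 51.9 in pho92_null and 426 ± 27.9 in WT. Unlike SDH1, SDH9 was called lower than CUP1_WT in W5A and W5A_W18A, and whether the paralogues differ in this was not tested.

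The membrane anchor gene SDH3 was not called in any comparison and had strain means between 341 CPM in W5A_W18A_del28_52 and 433 CPM in pho92_null. Its means were 415 ± 41.8 in W177A, 414 ± 12.5 in del28_52_130_155, 375 ± 30.6 in del28_52, 393 ± 23.3 in del110_155, 391 ± 44.6 in del1_70, 398 ± 21.1 in W5A_W18A_del28_52_110_155, 361 ± 22.5 in W5A_W18A, 371 ± 70.7 in W5A and 411 ± 33.5 in W18A, against 404 ± 29.2 in CUP1_WT and 428 ± 20.8 in WT (SD, n = 3 each). Its paralogue SHH3, which is not a member because its symbol is not on the list, spanned 4.27 to 22.0 CPM over the 39 libraries. SHH3 had 12.9, 10.5 and 5.11 CPM in W177A, 7.95, 7.56 and 5.12 CPM in del28_52_130_155, 7.69, 11.6 and 6.14 CPM in del28_52, 7.34, 6.76 and 5.62 CPM in del110_155 and 10.8, 9.69 and 7.63 CPM in del1_70. It had 15.2, 14.0 and 4.95 CPM in W5A_W18A_del28_52, 17.5, 9.77 and 4.27 CPM in W5A_W18A_del28_52_110_155, 9.98, 13.4 and 11.1 CPM in W5A_W18A, 16.8, 15.4 and 10.4 CPM in W5A and 22.0, 14.5 and 10.1 CPM in W18A, against 21.6, 12.1 and 11.8 CPM in CUP1_WT, 14.6, 17.6 and 11.8 CPM in pho92_null and 20.5, 13.9 and 11.0 CPM in WT. Replicate 3 was the lowest SHH3 library in most of these strains, so its strain means are uncertain.

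**Figure D4:**
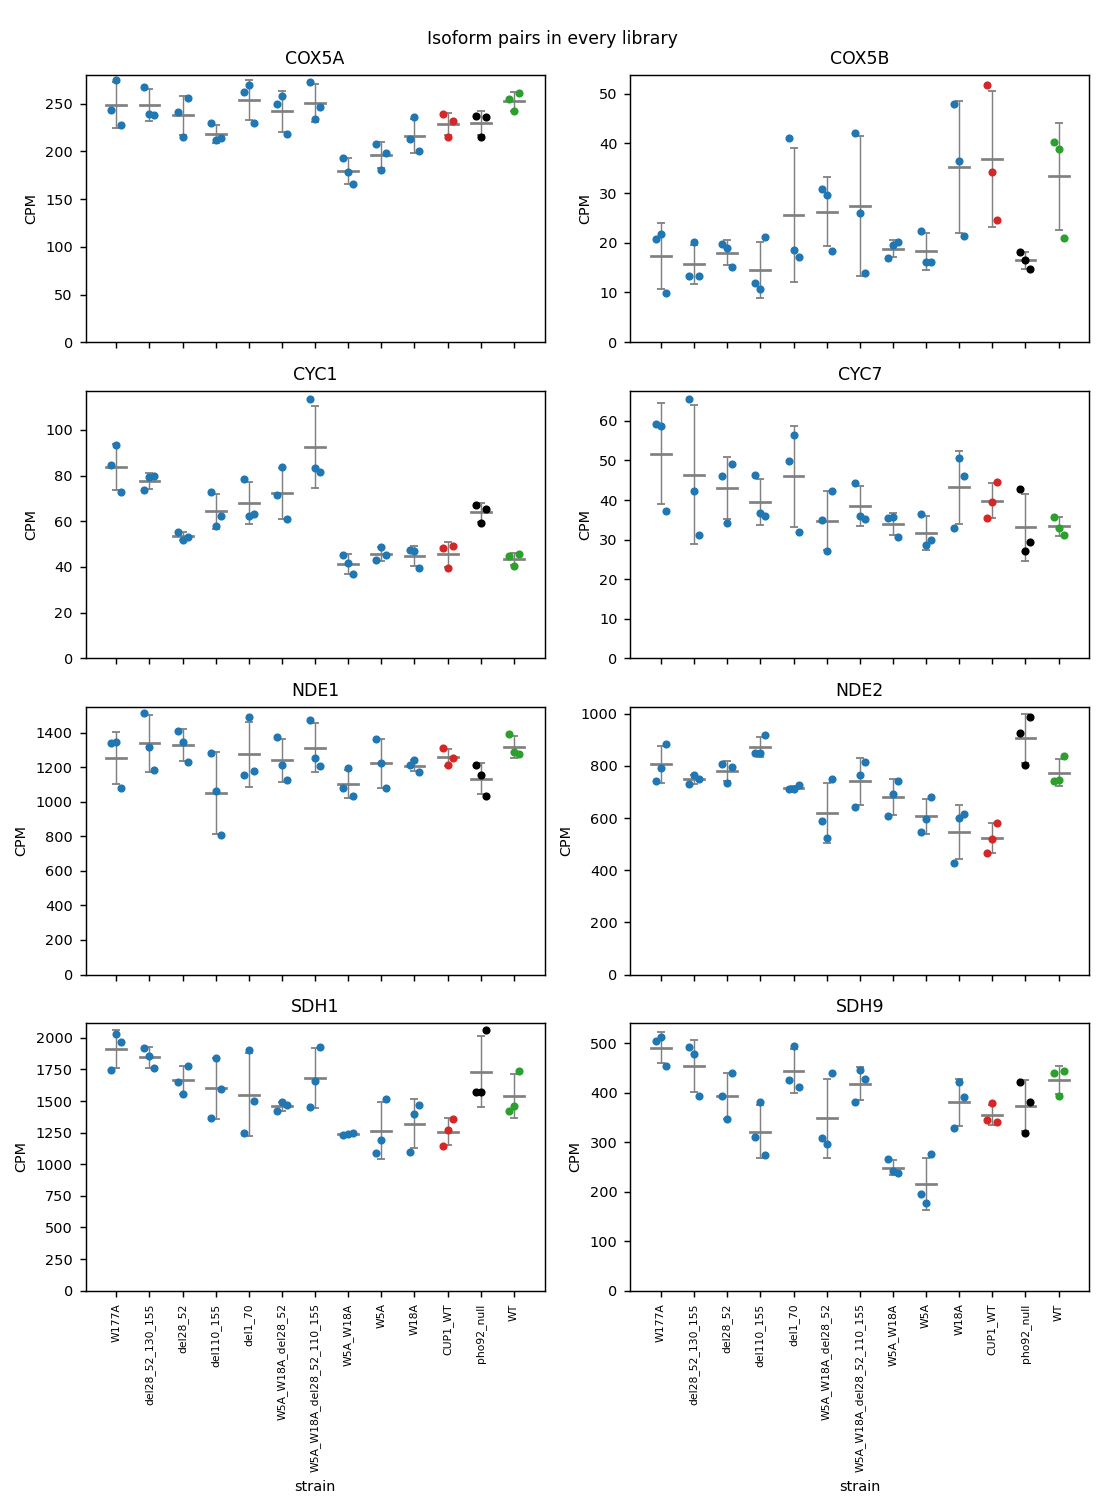
CPM of 4 isoform or paralogue pairs in every library of the 13 strains, with gray lines for the mean and SD of 3 libraries. COX5B spans 24.7 to 51.7 CPM in the CUP1_WT libraries, while COX5A stays between 216 and 239 CPM in that strain.

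Genes of pathways around the respiratory chain were counted in the same comparisons. Of all genes tested, 20.5% were called in W177A, 39% in W5A and 33.2% in W5A_W18A, each against CUP1_WT. Hap4 is the limiting part of the activator that drives many respiratory genes. HAP4 averaged 391 ± 29.4 CPM in W5A and 588 ± 84.0 CPM in CUP1_WT (SD, n = 3 each; log2 difference -0.58 ± 0.18 SE, limma adjusted p = 0.0125). It was also lower than CUP1_WT in W5A_W18A (log2 difference -0.65 ± 0.18 SE, limma adjusted p = 0.00769) and del110_155 (log2 difference -0.55 ± 0.18 SE, limma adjusted p = 0.0143). In pho92_null the gene averaged 386 ± 58.4 CPM and was called lower than in CUP1_WT and than in WT, which averaged 579 ± 56.4 CPM. HAP4 had 618, 682 and 447 CPM in W177A, where it was not called. Of the 5 Hap regulator genes, 1 was called higher and 0 lower in W177A against CUP1_WT: HAP1, which is not part of the Hap2/3/4/5 activator. In W5A 0 were called higher and 1, HAP4, was called lower. Of 11 tricarboxylic acid cycle genes, 1 was called higher and 0 lower in W177A against CUP1_WT, 0 and 2 in W5A and 0 and 3 in W5A_W18A. In each of these strains the share of the 11 that was called was below that of all genes. In W177A against W5A, 5 of the 11 were called higher and 0 lower, against 16.9% and 17.8% of all genes. Of 11 coenzyme Q genes, 2 were called higher and 0 lower in W177A against CUP1_WT: COQ9 and CAT5. Of 9 tested genes for other respiratory dehydrogenases and carriers, 2 were called higher and 1 lower in that comparison.

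The list of 42 assembly and translation factors with other names gave 3 genes called higher and 9 lower in W177A against CUP1_WT. Of all genes, 13.5% were called higher there and 7.04% lower. In del28_52_130_155 the counts were 1 and 14 (12.4% and 9.18% of all genes), and in del28_52 1 and 10 (11% and 8.27%). In del110_155 they were 4 and 10 (22.3% and 23.5%). W5A had 3 and 4 (20.9% and 18.1%), and W5A_W18A had 2 and 4 (16.7% and 16.5%). In CUP1_WT against pho92_null, 13 were called higher and 4 lower, against 19.2% and 20.8% of all genes. SCO1, a copper chaperone of complex IV, averaged 127 ± 48.4 CPM in CUP1_WT and 44.5 ± 10.4 CPM in pho92_null (SD, n = 3 each; log2 difference 1.48 ± 0.26 SE, limma adjusted p = 9.46e-05), and COA3, which binds newly made Cox1, averaged 29.8 ± 5.12 CPM in CUP1_WT and 13.7 ± 1.39 CPM in pho92_null (log2 difference 1.10 ± 0.18 SE, limma adjusted p = 2.82e-05). Both were higher in CUP1_WT by more than the spread. Of 3 genes for inhibitors and stabilisers of the ATP synthase, 1 was called higher in W177A than in CUP1_WT: STF1 averaged 156 ± 13.7 CPM in W177A and 96.2 ± 12.8 CPM in CUP1_WT (log2 difference 0.71 ± 0.11 SE, limma adjusted p = 3.85e-05).

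Genes listed as markers of meiotic stage and of fermenting cells moved with several of these comparisons. The 10 middle-meiosis genes were all called lower in W5A, W5A_W18A and del110_155 against CUP1_WT. In W177A 1 of the 10 was called lower, in del28_52 1 and in del28_52_130_155 2. In del1_70, W5A_W18A_del28_52, W5A_W18A_del28_52_110_155 and W18A 0 were called lower. Their summed level ranged over 1157 to 7450.3 CPM in W177A, 2489 to 8903 CPM in del28_52_130_155, 549 to 1561 CPM in W5A and 201 to 1063 CPM in del110_155, against 5376 to 26629 CPM in CUP1_WT. It ranged over 3243 to 20241 CPM in W5A_W18A_del28_52_110_155. Subunit genes called higher than in CUP1_WT are given here with the share of all genes called higher in brackets. They numbered 20 in W177A (13.5%), 20 in del28_52_130_155 (12.4%), 16 in W5A_W18A_del28_52_110_155 (8.49%) and 14 in del28_52 (11%). There were 12 in del1_70 (6.68%), 11 in del110_155 (22.3%), 5 in W5A_W18A_del28_52 (8.13%) and 2 in W5A (20.9%). In W5A_W18A 4 members of either role were called higher (16.7%), and in W18A 0 (0%). The 15 called lower in CUP1_WT than in pho92_null (20.8% of all genes) stood beside a sum of 617 to 4314 CPM in pho92_null. The summed level of 10 genes of glycolysis, ethanol formation and glucose uptake, taken as markers of fermenting cells, ranged over 6542 to 9115 CPM in W5A, 3708 to 12698 CPM in del110_155 and 3096 to 5876 CPM in W177A, against 2135 to 4674 CPM in CUP1_WT. Of these 10, 5 were called higher in W5A, 4 in del110_155 and 0 in W177A. With 1 library left out these counts ranged over 0 to 6 in W5A and 0 to 5 in del110_155. Levels within this list differed widely: TDH3 ranged over 451 to 4566 CPM and FBA1 over 495 to 2829 CPM. The transporter gene HXT3 ranged over 13.6 to 92.5 CPM, and HXT1, a glucose-induced transporter gene, over 0.522 to 4.19 CPM. The sum thus rests mostly on enzyme genes and does not show whether cells fermented. The sum of 10 early-meiosis genes was 11809 to 12625 CPM in W5A, 4448 to 17020.5 CPM in del110_155 and 18222 to 21622 CPM in W177A, against 16584 to 19934 CPM in CUP1_WT. The sum of 10 genes of haploid mating-type cells was at most 381 CPM in any library. Among them the pheromone genes MFA1 and MFA2 were at or below 1.48 CPM and MF(ALPHA)1 ranged over 1.68 to 13.7 CPM. Others were higher, with STE4 at up to 163 CPM, STE18 at up to 78.5 CPM and STE3 at up to 62.6 CPM. Of those 10, 6 were called higher and 2 lower in CUP1_WT against pho92_null, and 1 higher and 0 lower in W177A against CUP1_WT. The part of these markers in the members' differences was not tested.

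**Figure D5:**
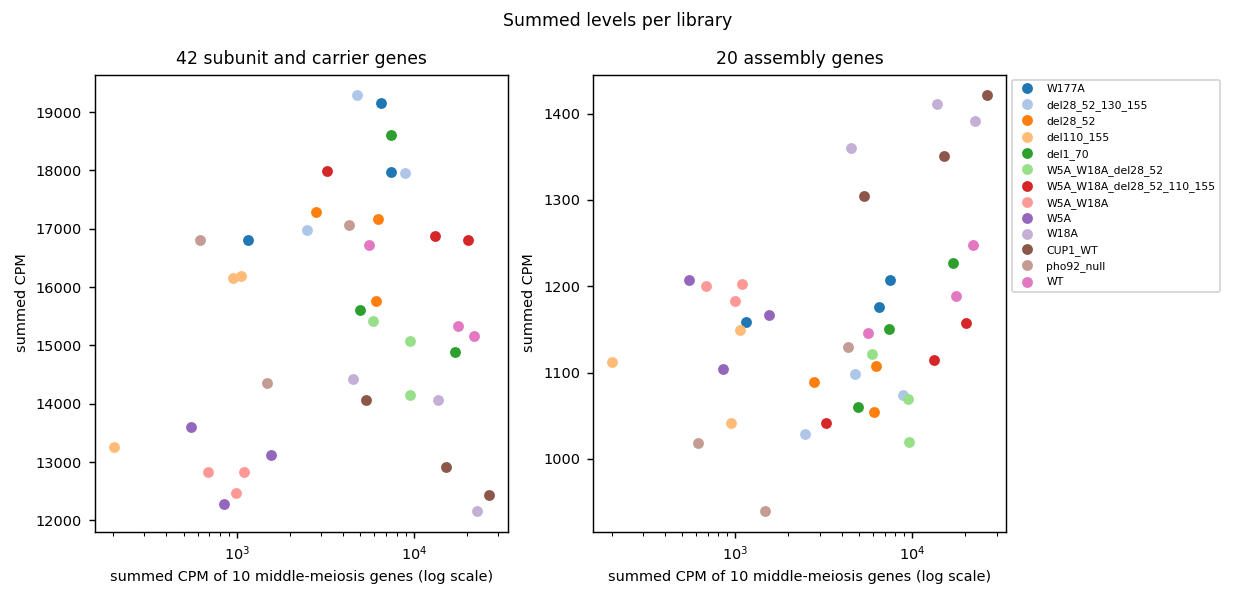
Summed CPM of the 42 subunit and carrier genes (left) and of the 20 assembly genes (right) in each library against the summed CPM of 10 middle-meiosis genes on a log scale, coloured by strain. Subunit sums are 16809 to 19158 CPM in W177A and 12435 to 14059 CPM in CUP1_WT, and assembly sums are 1159 to 1207 CPM in W177A and 1304 to 1421 CPM in CUP1_WT.

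The members' own likeness across strains was described with Pearson's r over the 13 strain means, which share the 39 libraries. The median r over pairs of members was 0.234. With the mean of the other members, 34 members had an r above 0.5, led by the complex III genes QCR7 (r = 0.93) and COR1 (r = 0.9) and by SDH9 (r = 0.891). The 14 members with an r below 0 included COX18 (r = -0.768), ATP10 (r = -0.738) and COX10 (r = -0.677), all assembly genes, with COX5B (r = -0.138) and QCR10 (r = -0.0547) the only subunit genes among them. The 5 genes outside the members whose pattern was most like the members' mean standardised level were YNL195C (r = 0.937), PET18 (r = 0.93), BNA4 (r = 0.925), SIP4 (r = 0.924) and ACS1 (r = 0.915), over the same 13 strain means.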

How the data were processed

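The authors deposited 1 table of whole-number counts per gene for 39 libraries, with a directional poly(A) kit and 100 bp paired-end reads per the labels' protocols. The submitters' processing notes name STAR 2.7.10a, RSEM 1.3.1 and DESeq2 1.48.1. The genome build, annotation, strand setting and treatment of reads shared by paralogues are not given in the sources used here, so no coordinates or sequences are printed and antisense reads cannot be told apart. The deposited count columns also carry 47 heading and annotation lines, which were left out. Of 6186 features, 5630 matched a RefSeq R64 locus tag.

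Counts were scaled by TMM (factors 0.865 to 1.13) to log2 CPM with a prior count of 2. A gene was kept if at least 3 libraries reached the rate of 10 counts in a library of median size and it had 15 counts in all, which left 5840. One limma 3.58.1 (R 4.3.3) fit held all 39 libraries by strain, with limma adjusted p-values by Benjamini-Hochberg, and was tested on simulated data. Log2 CPM was tested in place of a count model because of the lines mixed into the columns. Levels printed as CPM use the TMM-scaled library sizes. A member was given a fold change with its test in a comparison if called there, with 50 counts or more on average in the higher strain, the same direction in all 3 same-numbered pairs, and among the 4 largest rises or 4 largest falls. Isoform pairs were described regardless. Members, lists and tests were chosen with earlier results of these data known. Alternatives were RLE size factors, no low-count filter, a prior count of 0.5, a replicate block, only the strains compared, and leaving out each library.

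Same-numbered libraries deviated together: the correlations of their deviations from the strain means were over 0.1 for all 3 pairs in 6 of 15 comparisons (CUP1_WT minus WT, and W5A, W18A, del28_52, del110_155 and W5A_W18A_del28_52_110_155 minus CUP1_WT). There the numbers were taken to pair the libraries. W177A minus CUP1_WT did not meet this rule, with correlations of 0.572, -0.17 and 0.597. With the replicate block it had 32 members called in place of 28, against 32.7% of all genes in place of 20.5%.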

Additional observations from a re-analysis of the deposited data

How the results depend on the processing

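Of the 105 named differences of members, 0 reversed direction under any alternative. Of them, 102 kept their side of the threshold with RLE size factors, 102 with no low-count filter, 105 with a prior count of 0.5, 105 with the replicate block and 56 in fits of only the strains compared. Leaving out each library in turn kept 512 calls and lost 118. Counts of members called moved by over 1.5 times in fits of only the strains compared: to 3 for pho92_null minus WT, 13 for CUP1_WT minus pho92_null, 0 for CUP1_WT minus WT, 16 for W177A minus CUP1_WT, 0 for del1_70, 5 for del110_155, 0 for W5A_W18A_del28_52 and 1 for W5A_W18A_del28_52_110_155 minus CUP1_WT, and 0 for W177A minus pho92_null. These fits hold 6 libraries. For most fits with fewer libraries the share of all genes is not given here. A fall in the members' count there cannot be told from a fall over all genes. W177A minus pho92_null gave 1 with RLE size factors and 9 with the replicate block, and W5A_W18A minus CUP1_WT gave 16 with the block, where 43.5% of all genes were called, though the numbers do not pair those libraries. The replicate block changed no other call of a named difference and moved no other count by over 1.5 times. In the 6 comparisons whose numbers pair the libraries, the block lost 0 calls of members and added 32, and in del110_155 it took the members' share above that of all genes. The correlations of each library with those of other strains were also averaged by replicate number. For 30 of 39 libraries the highest average was that of their own number. With 1 library left out, the counts ranged over 8 to 17 for pho92_null minus WT, 20 to 29 for CUP1_WT minus pho92_null, 3 to 5 for CUP1_WT minus WT, 0 to 11 for W177A minus pho92_null, 19 to 27 for W177A minus W5A, and 23 to 37 for any of the 13 strains. Against CUP1_WT they ranged over 18 to 29 for W177A, 4 to 14 for W5A, 0 to 0 for W18A, 3 to 14 for W5A_W18A, 9 to 20 for del1_70, 16 to 27 for del28_52, 15 to 30 for del110_155, 23 to 32 for del28_52_130_155, 9 to 13 for W5A_W18A_del28_52 and 16 to 23 for W5A_W18A_del28_52_110_155. The cause of these moves was not tested. A number of 3 libraries a strain limits the precision, and counting error covers the reads only.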
